A study of Mus musculus with 2 samples.

Results

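Pericytes are the mural cells that sit on the outer face of the endothelium in small vessels, and in adult tissue they are recognised by a handful of genes that are read together. The genes described here are 8 such pericyte markers, Rgs5, Cspg4, Mcam, Cd248, Abcc9, Kcnj8, Anpep and Ndufa4l2, of the 31053 genes in the count matrices. They were taken by name and not by a cut on their values, but with earlier results of these data known. UMIs of these genes (unique molecular identifiers, each standing for 1 captured transcript) were counted in a set of barcodes. These barcodes had at least 2000 UMIs, of which under 10% came from mitochondrial genes. At least 1 UMI of a member was found in 4001 of 8253 such cells of the WT library and in 3840 of 8165 cells of the KO library.

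The study asked how stromal cells that carry the PDGF receptor β contribute to blood stem cell formation in the mouse embryo. The aorta-gonads-mesonephros region (AGM), where the dorsal aorta gives rise to blood stem cells, was dissected from E11 embryos of genotype PDGFRB +/+ (WT) or PDGFRB -/- (KO, without the receptor), made into single cells with collagenase and run through the 10x Chromium 3′ assay, with no sort named. Each genotype is 1 library, and how many embryos went into it is not given in the sources used here. The WT library held Xist at 793 CPM (UMIs of a gene per 1000000 UMIs) and the Y-linked gene Ddx3y at 0.00666 CPM, and the KO library held Xist at 0.415 CPM and Ddx3y at 56.7 CPM, so sex, library and genotype cannot be told apart. With 1 library a genotype no test was made between them. The intervals in brackets below cover counting error only, at 95% (exact Poisson for CPM, exact binomial for shares, exact conditional for ratios), and they leave out the variation between embryos.

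The cells used held 150175081 UMIs in WT, with a median of 13321 per cell, and 142222182 in KO, with a median of 12391. Of the cell barcodes, 20 occurred in both libraries. Doublets were kept. Cells were put into 12 classes by lists of marker genes without any member among them. A smooth muscle-like cell, for example, needed 4 of 8 genes (Acta2, Tagln, Actg2 and Myh11 among them) at 100 CPM or more. Of such cells, 177 of 446 in WT and 135 of 338 in KO carried the minimum of 4. These markers do not tell smooth muscle of the vessel wall from other smooth muscle. No class took 1941 cells in WT and 1921 in KO, which were shallow (median 5398 and 6677 UMIs) and led by S100a8 and S100a9, and 51 and 31 cells with markers of several classes were set aside as mixed. The 10 classes with at least 50 cells in each library are compared. Pdgfrb itself, the targeted gene, stood at 43.1 CPM (WT) and 7.09 CPM (KO). Since 3′ counts do not show the deleted part of a gene, the remaining 1009 UMIs do not say whether any receptor was made. The study reports PDGFRβ as absent from E11 KO AGMs by immunostaining and flow cytometry.

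The members belong to unlike families. Rgs5 encodes a GTPase-activating protein that dampens signalling by G protein-coupled receptors. Kcnj8 and Abcc9 encode the pore and the regulatory subunit of the same vascular ATP-sensitive potassium channel. Cspg4 (the proteoglycan NG2), Mcam (the adhesion molecule CD146), Cd248 (endosialin) and Anpep (aminopeptidase N) encode proteins of the cell surface, and Ndufa4l2 encodes a mitochondrial protein related to the respiratory chain subunit Ndufa4 and known to be induced by low oxygen. None of them is restricted to pericytes in every tissue: NG2 also marks cartilage and glial precursors, and CD146 also marks endothelium.

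The channel genes are neighbours in the genome. Kcnj8 lies on chromosome 6 at 142564837 to 142571614 and Abcc9 at 142587862 to 142702315 of GRCm38, both on the minus strand and 16247 bases apart. The stretches around their starts (250 bases before to 50 after, from RefSeq, GRCm38.p6, minus strand), shown because this pair had the highest ratio of observed to expected co-detection, were chr6:142571565-142571864 for Kcnj8 and chr6:142702225-142702524 for Abcc9. Capitals mark matches, searched on both strands, to the CArG box of serum response factor, to CAGCTG (an E-box of bHLH factors), to ACGTG (the core bound by hypoxia-inducible factors), to TGGGAA (bound by the Notch effector RBPJ) and to CATTCC (bound by TEAD factors).

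Kcnj8: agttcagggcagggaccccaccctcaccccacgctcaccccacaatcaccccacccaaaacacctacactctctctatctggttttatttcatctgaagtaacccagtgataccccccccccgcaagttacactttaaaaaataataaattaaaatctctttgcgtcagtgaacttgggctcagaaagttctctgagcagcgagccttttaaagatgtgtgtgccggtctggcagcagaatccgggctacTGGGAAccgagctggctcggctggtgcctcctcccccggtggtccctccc

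Abcc9: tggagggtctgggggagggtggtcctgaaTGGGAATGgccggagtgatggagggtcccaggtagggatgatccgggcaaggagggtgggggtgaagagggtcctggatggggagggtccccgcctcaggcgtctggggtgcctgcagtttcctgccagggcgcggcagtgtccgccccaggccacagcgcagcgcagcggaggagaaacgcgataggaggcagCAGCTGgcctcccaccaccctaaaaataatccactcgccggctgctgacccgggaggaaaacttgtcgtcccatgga

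TGGGAA was found in both stretches and in 25.6% of all 32851 promoters of this length. In Abcc9 it overlapped a CATTCC match, which 14.7% of promoters held. Abcc9 also held CAGCTG, as did 16.3% of promoters. Neither stretch held ACGTG, found in 19.6% of promoters, or a CArG box, found in 1.63%. A match is a run of letters, not a bound site. Promoters of 6 of the 8 members were given, and no CArG box was in any of them. On the same build Rgs5 lies on chromosome 1 at 169655501 to 169695813, Cspg4 on chromosome 9 at 56865033 to 56899870, Mcam on chromosome 9 at 44134469 to 44142727, Cd248 on chromosome 19 at 5068078 to 5070682, and Ndufa4l2 on chromosome 10 at 127514967 to 127517154, all on the plus strand. Anpep lies on the minus strand of chromosome 7 at 79821803 to 79861059 and overlaps Gm44974 on the same strand, so its reads may be shared with that gene.

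Smooth muscle-like cells carried the highest level of most members in WT, but not of all. Of the 8 members, 6 were highest there in WT and 4 in KO, where 8.61% of all genes with at least 100 UMIs were highest in that class in WT and 6.68% in KO. With stricter gates the counts were 5 (WT) and 6 (KO), and with mitochondrial UMIs under 5% they were 5 and 3. The mean of per-cell CPM gave 4 and 4. No share over all genes was computed for these alternatives. Cd248, Rgs5 and Cspg4 had their peak in smooth muscle-like cells in both libraries. There Cd248 reached 138 CPM [131 to 146] (WT) and 94.8 CPM [88.3 to 102] (KO), followed by mesenchyme-like cells at 62.1 and 56.6 CPM. For Rgs5 the values were 137 CPM [130 to 145] (WT) and 116 CPM [109 to 123] (KO). Cspg4 reached 43.2 CPM [39.0 to 47.6] and 41.2 CPM [36.9 to 45.8], and its next class was sclerotome-like cells, precursors of the vertebral cartilage, at 17.2 CPM [15.2 to 19.3] (WT) and 26.4 CPM [24.5 to 28.4] (KO). With mitochondrial UMIs under 5%, Cspg4 in KO was highest in sclerotome-like cells, at 27.4 against 24.6 CPM in smooth muscle-like cells. These levels compare classes for 1 gene at a time, and levels of unlike genes are not set against each other.

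**Figure D1:**
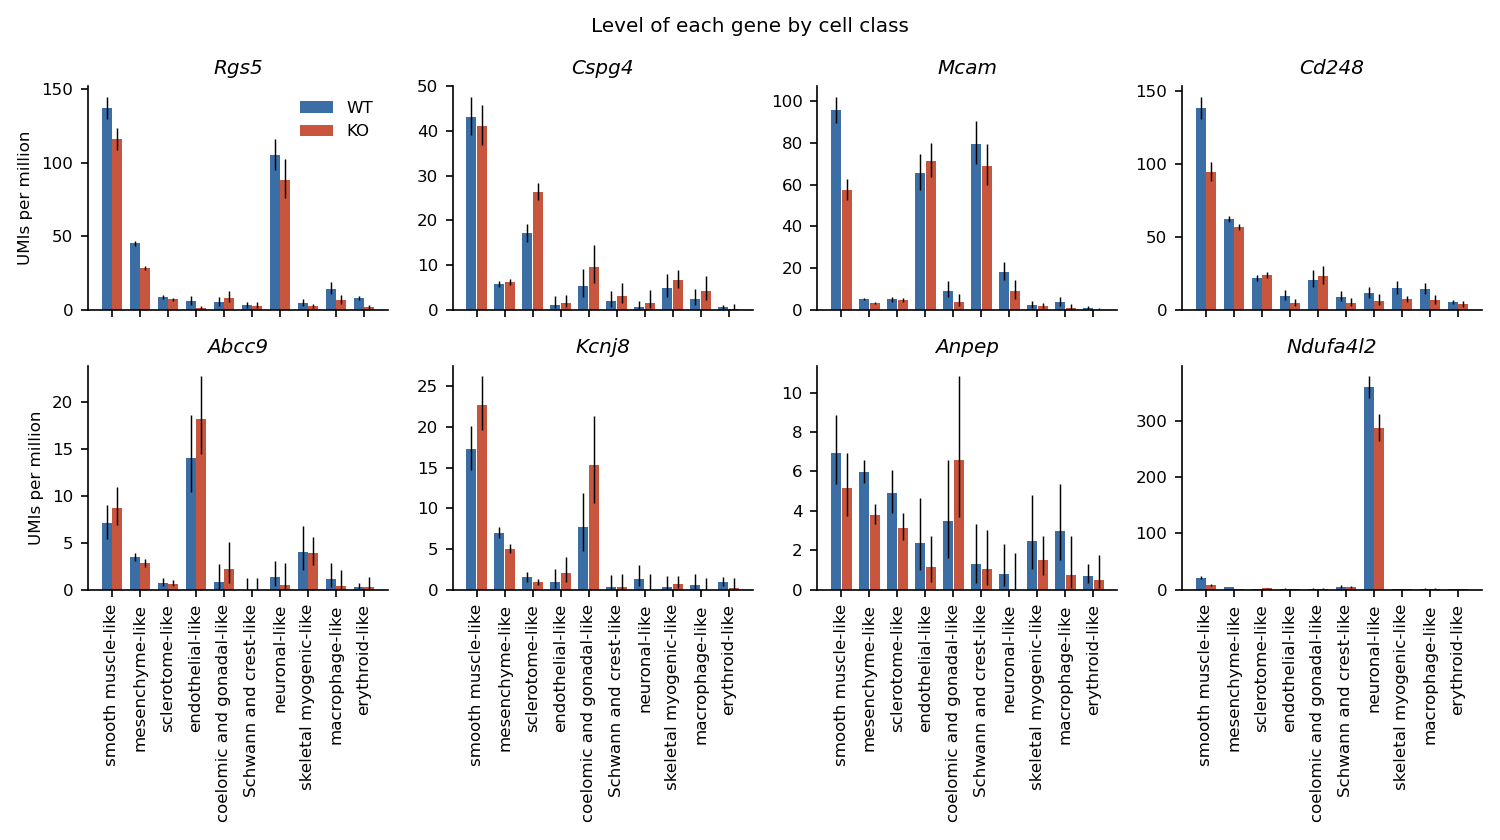
CPM of each gene in the 10 cell classes with at least 50 cells in each library, WT in blue and KO in red, with exact 95% counting intervals; each panel has its own linear axis from 0. The genes do not share 1 class: Ndufa4l2 stands in neuronal-like cells, Abcc9 is highest in endothelial-like cells and Mcam is divided among 3 classes.

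Ndufa4l2 had its peak outside the smooth muscle-like class. In neuronal-like cells it reached 360 CPM [341 to 379] (WT) and 287 CPM [264 to 312] (KO), against 21.0 CPM [18.2 to 24.2] and 7.66 CPM [5.9 to 9.78] in smooth muscle-like cells. The 117 neuronal-like cells of WT made up 1.42% of cells and held 64.7% of all Ndufa4l2 UMIs, and the 110 of KO held 62.0%. Rgs5 was the only other member at a high level there, at 105 CPM [95.3 to 116] (WT) and 88.6 CPM [75.9 to 103] (KO), second to smooth muscle-like cells. Neuronal-like cells with a UMI of Th or Dbh, enzymes of noradrenaline synthesis that mark developing sympathetic cells, carried most of both. In WT, 86 such cells held Ndufa4l2 at 396 CPM and Rgs5 at 119 CPM, and the 31 without held them at 97.3 and 6.49 CPM. In KO, 69 such cells held Ndufa4l2 at 338 CPM and Rgs5 at 110 CPM, and the 41 without at 102 and 11.6 CPM. Epas1, which encodes the oxygen-regulated factor HIF-2α, was at 65.6 CPM with and 4.33 CPM without Th or Dbh in WT. In KO it was at 53.0 CPM with them and at 0 UMIs without, which allows up to 3. Epas1 was also high in endothelial-like cells, at 62.2 CPM (WT) and 84.1 CPM (KO), where Ndufa4l2 had only 2 UMIs and 1. A link between the genes was not tested. The cells with Th or Dbh were deeper (median 31808 against 5139 UMIs in WT, 14016 against 5229 in KO), and this split was chosen after the levels were seen.

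Mcam and Abcc9 were shared with the endothelium. Mcam stood at 95.7 CPM [89.5 to 102] in smooth muscle-like cells of WT, at 79.7 CPM [70.0 to 90.4] in Schwann and crest-like cells and at 65.7 CPM [57.4 to 74.9] in endothelial-like cells. In KO the order turned, with 71.6 CPM [63.8 to 80] in endothelial-like, 69.2 CPM [59.9 to 79.4] in Schwann and crest-like and 57.5 CPM [52.4 to 62.8] in smooth muscle-like cells, and the intervals of the first pair overlapped. Thinned to 2000 UMIs per cell, Mcam was detected in 13.1% of smooth muscle-like, 13.5% of endothelial-like and 13.7% of Schwann and crest-like cells of WT, so the classes could not be ranked by this measure. With the mean of per-cell CPM the order of WT turned as well, with 78.6 CPM in endothelial-like against 77.1 CPM in smooth muscle-like cells. In KO, smooth muscle-like cells came first with stricter gates, at 107 CPM. They also did with mitochondrial UMIs under 5%, at 69.5 CPM. Abcc9 was highest in endothelial-like cells, at 14.1 CPM [10.4 to 18.7] (WT) and 18.2 CPM [14.4 to 22.7] (KO), ahead of smooth muscle-like cells at 7.05 CPM [5.44 to 8.99] and 8.74 CPM [6.85 to 11]. Without the 5% of cells with the most UMIs the gap narrowed to 8.29 against 6.80 CPM in WT and to 9.5 against 8.26 CPM in KO. Its channel partner Kcnj8 was nearly missing from endothelial-like cells, with 3 UMIs in WT and 9 in KO, beside 48 and 79 of Abcc9. Kcnj8 was highest in smooth muscle-like cells, at 17.2 CPM [14.7 to 20.1] (WT) and 22.7 CPM [19.6 to 26.2] (KO), followed by coelomic and gonadal-like cells at 7.69 CPM [4.7 to 11.9] and 15.3 CPM [10.7 to 21.3]. In WT the latter overlapped mesenchyme-like cells at 6.99 CPM [6.38 to 7.66]. With mitochondrial UMIs under 5%, coelomic and gonadal-like cells of KO came first for Kcnj8, at 19.6 against 14.2 CPM in smooth muscle-like cells.

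Anpep was the member with the least class preference. It stood at 6.94 CPM [5.35 to 8.87] in smooth muscle-like, 5.95 CPM [5.39 to 6.57] in mesenchyme-like and 4.9 CPM [3.9 to 6.09] in sclerotome-like cells of WT, with overlapping intervals, and with stricter gates mesenchyme-like cells came first at 8.79 CPM. In KO coelomic and gonadal-like cells came first, at 6.56 CPM [3.67 to 10.8] on 15 UMIs, with an interval that overlapped that of smooth muscle-like cells at 5.15 CPM [3.73 to 6.93]. Within mesenchyme-like cells of WT, the 327 with an Anpep UMI carried more of the matrix genes Lum (565 against 157 CPM), Postn (358 against 109 CPM) and Dcn (586 against 193 CPM) than the 2930 without; these genes are also markers of the class. In KO the 194 cells with Anpep held Lum at 73.2 CPM and the 2853 without at 74.3 CPM, Dcn at 88.1 and 99.5 CPM, and Postn at 90.9 and 56.1 CPM. Cells with an Anpep UMI were deeper in both libraries (median 22024 against 13550 UMIs in WT and 22038 against 12641 in KO).

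Free RNA can add to these values, which limits how the low ones are read. In erythroid-like cells, which should lack the members, Rgs5 was detected in 3.85% of WT cells (median 16774.5 UMIs) and Cd248 in 5.63%, against 47.1% and 65.7% of smooth muscle-like cells (median 15873 UMIs). The other members were found in 0.275% to 1.37% of erythroid-like cells of WT. Thinned to 2000 UMIs, Rgs5 was detected in 0.725% of erythroid-like, 18.4% of smooth muscle-like and 12.0% of neuronal-like cells. In barcodes with at most 100 UMIs, the members' levels lay between 2.82 CPM for Abcc9 and 47.5 CPM for Cd248 in WT. These levels give the make-up of free RNA and are not a floor for cells. Rgs5, at 28.6 CPM there, stood at 2.94 CPM in Schwann and crest-like cells of WT. How much free RNA each class held was not measured, so low values outside the stroma cannot be read as expression. Ndufa4l2 was at 12.9 CPM in the free RNA of WT and at 4.24 CPM in that of KO. Hemoglobin and other erythroid marker genes summed to 279 CPM in smooth muscle-like cells of WT and to 1131 CPM in those of KO. Leaving hemoglobin and mitochondrial genes out of the denominator changed the log2 KO over WT there little, for Rgs5 from -0.244 to -0.241 and for Cspg4 from -0.068 to -0.065. Any other part of these genes in the results was not tested.

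**Figure D2:**
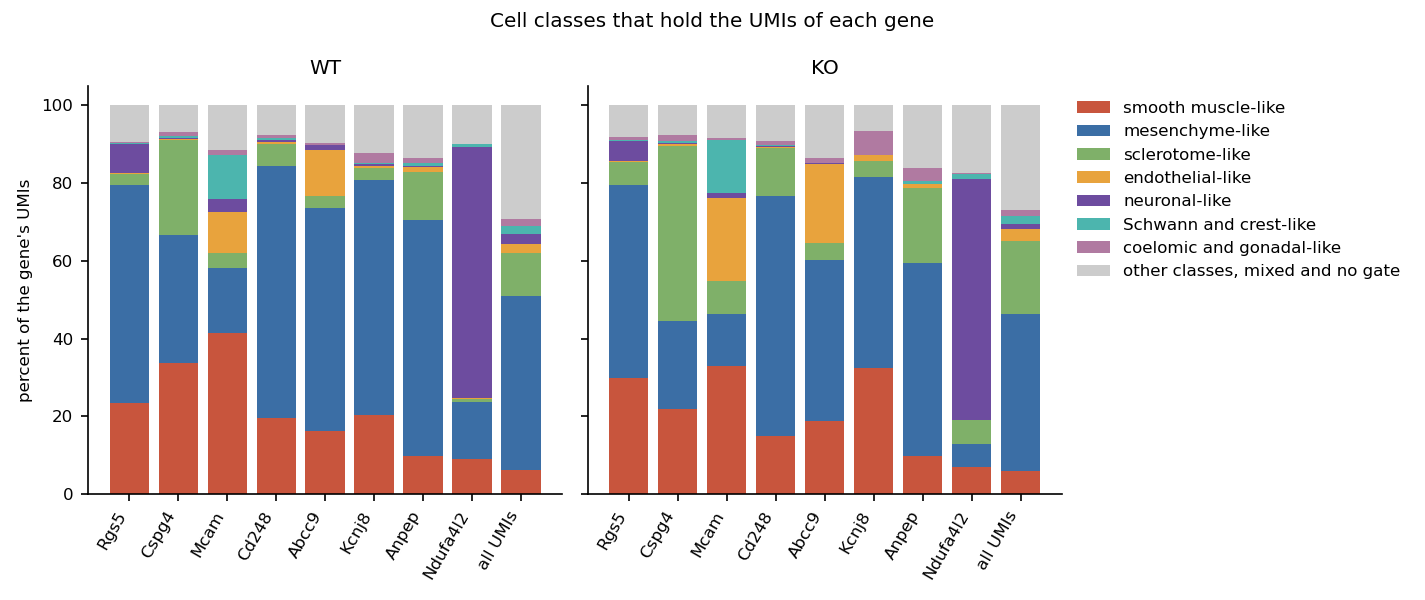
Percent of each gene's UMIs that lie in each cell class, WT left and KO right, with all UMIs of the library as the last bar. In WT 41.5% of Mcam UMIs came from smooth muscle-like cells, 64.7% of Ndufa4l2 UMIs from neuronal-like cells and 60.8% of Anpep UMIs from mesenchyme-like cells.

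Although smooth muscle-like cells had high levels of several members, few cells carried many of them. No member was found in 4252 of 8253 WT cells and 1 in 2229, while 4 or more were found in 350 cells (4.24% [3.82 to 4.7%]) and all 8 in 1 cell. In KO 4 or more were found in 233 of 8165 cells (2.85% [2.5 to 3.24%]) and all 8 in 2. Cells with 4 or more were deep, with medians of 34050.5 UMIs in WT and 34354 in KO. Of the 350 cells in WT, 156 were mesenchyme-like and 143 smooth muscle-like. Among smooth muscle-like cells alone the share was 32.1% [27.8 to 36.6%] in WT and 29.9% [25 to 35.1%] in KO.

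Co-detection was measured against the number of cells expected to hold both genes if they were spread independently within 20 bins of depth. Of the 28 pairs of members, 15 reached 1.5 times that number in each library, and the median ratio was 1.59 in WT and 1.54 in KO. The pair with the highest ratio in both libraries was that of the channel subunits, whose promoters are printed above. Kcnj8 and Abcc9 were found together in 81 WT cells where 26.4 were expected, a ratio of 3.07 [2.44 to 3.81], and in 69 KO cells where 20.4 were expected, a ratio of 3.38 [2.63 to 4.27]. Of the 81 cells 51 were mesenchyme-like and 21 smooth muscle-like, and of the 69 cells 32 and 24. Within classes the ratio stayed above 1, at 3.35 [2.49 to 4.4] in mesenchyme-like and 2.81 [1.74 to 4.3] in smooth muscle-like cells of WT, and 3.03 [2.07 to 4.27] and 2.22 [1.42 to 3.3] in those of KO. Among smooth muscle-like cells without a UMI of Wnt2, a gene that divides this class and is described further on, the WT ratio was 1.75 [1.07 to 2.7], on 20 cells where 11.4 were expected. Read against smooth muscle-like and mesenchyme-like cells with neither gene, the 72 WT cells of these classes with both held Myh11, the smooth muscle myosin and a marker of the class, at 94.6 against 11.8 CPM, the Notch target Heyl at 58.4 against 10.6 CPM and Rgs5 at 142 against 48.0 CPM. In KO, 56 such cells held Myh11 at 151 against 11.7 CPM, Heyl at 71.8 against 6.64 CPM and Rgs5 at 118 against 31.5 CPM. The cells with both were deeper than the rest, with a median of 43256 against 13553 UMIs in WT and 32894 against 12751 in KO. The mix of classes differed as well. In WT, 21 smooth muscle-like and 51 mesenchyme-like cells held both, where the classes counted 446 and 3257 cells. In KO they were 24 and 32, of 338 and 3047. Smooth muscle-like cells of WT held Rgs5 at 137 CPM and mesenchyme-like cells at 45.3 CPM. Class and joint detection were thus not separated in this comparison.

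**Figure D3:**
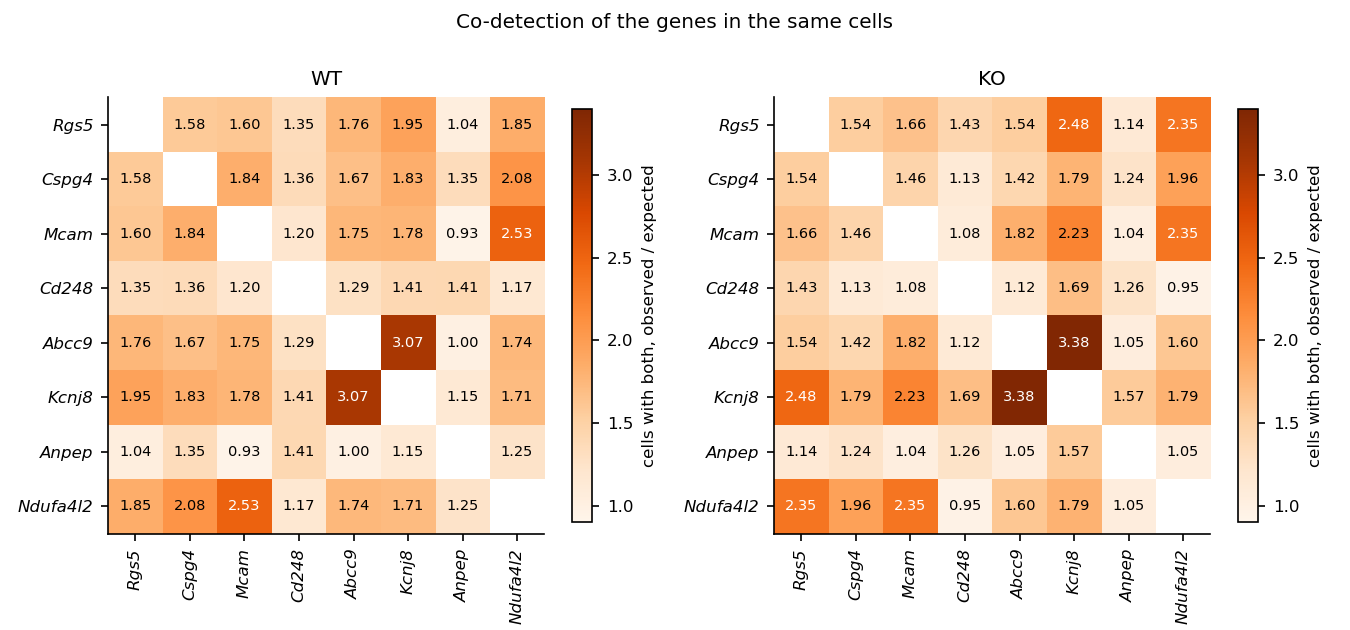
Ratio of observed to expected number of cells with a UMI of both genes, for each pair of members, WT left and KO right; 1 is the value of independent genes at the same depth. The darkest squares are those of Kcnj8 and Abcc9 (3.07 and 3.38), and Mcam with Anpep has the lowest value of WT (0.931).

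The other pairs had lower ratios. Mcam with Ndufa4l2 gave 2.53 [2.16 to 2.94] in WT and 2.35 [1.85 to 2.94] in KO, and Rgs5 with Kcnj8 gave 1.95 [1.67 to 2.25] and 2.48 [2.05 to 2.97]. Anpep with Mcam gave 0.931 [0.749 to 1.14] in WT and 1.04 [0.798 to 1.32] in KO, and Anpep with Abcc9 0.997 [0.695 to 1.39] and 1.05 [0.716 to 1.5], with 1 inside each interval. Cd248, the most widely detected member, lay between 1.17 and 1.41 with the others in WT. The ratio cannot exceed the number of cells with the rarer gene over the expected number, so widely detected genes have a low ceiling. Of the 278 WT cells with Abcc9, 142 were expected to hold Cd248 and 26.4 to hold Kcnj8. The observed numbers were 183 (65.8%) and 81 (29.1%). The ratios therefore do not rank pairs by the share of cells they have in common. Of their 7 partners, Rgs5, Cspg4, Mcam, Abcc9, Kcnj8 and Ndufa4l2 each reached 1.5 times the expected number with 5 in WT, and Cd248 and Anpep with 0. In WT, among all genes with at least 100 UMIs, 2.23% reached that ratio with Rgs5, 2.79% with Cspg4 and 4.68% with Mcam. For Cd248 the share was 0.511%, for Abcc9 4.05%, for Kcnj8 3.57%, for Anpep 3.05% and for Ndufa4l2 7%. No such shares were computed for KO. With the expected number formed within classes as well as depth bins, 7 pairs in WT and 9 in KO reached 1.5; no share over all genes was computed for these counts.

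The genes with the highest ratio of observed to expected co-detection with each member, among those sharing at least 20 cells in WT, were not the same for all members. Map3k7cl came first for Cspg4 (4.63 times the expected number), Mcam (4.25) and Abcc9 (4.13) and second for Kcnj8 (4.02), after Muc16 (4.10). For Rgs5 they were Nkx2-5 (3.45), Tlx1 (3.20) and Kazald1 (3.04), the first pair being transcription factors of the spleen primordium. For Ndufa4l2 they were C2cd4b (8.82), Insm2 (8.40) and St18 (8.32). For Mcam they included Gpr17 (4.08), for Cspg4 Tnmd (3.45) and Foxs1 (3.44). For Anpep they were Epha8 (3.62), Npy1r (3.46) and Cpne4 (3.39), and Cpne4 (1.89), Epha8 (1.84) and Npy1r (1.83) also came first for Cd248. In KO Map3k7cl was among the first 3 for Rgs5 (3.91), Mcam (4.26), Abcc9 (4.45) and Kcnj8 (5.4). Over the 20 levels formed by 10 classes and both libraries, which share cells and depth, as a description with no test, the pattern of Ndufa4l2 was most like that of Pcsk1n (Pearson r = 0.989) and Rgs4 (0.989), that of Kcnj8 most like Lox (0.971), the crosslinking enzyme of elastin and collagen, that of Cd248 most like Col1a1 (0.965), that of Abcc9 most like Ehd2 (0.945), that of Rgs5 most like Ntrk3 (0.956), that of Anpep most like Rbpms2 (0.949), that of Cspg4 most like Col12a1 (0.927) and that of Mcam most like Hbegf (0.91).

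Of a list of 25 other genes used to recognise mural cells, 22 had at least 100 UMIs in WT and 7 of them were highest in smooth muscle-like cells, and 5 of 22 in KO, beside 8.61% and 6.68% of all genes. Heyl was among them, at 83.2 and 61.9 CPM, and so was Notch3, the receptor of mural cells, at 52.3 and 52.0 CPM. Higd1b, a marker of mature pericytes, had 0 UMIs in WT, which allows up to 3, and 1 in KO, and Vtn had 48 and 47. Gja4 was highest in endothelial-like cells (153 and 151 CPM) and Des in skeletal myogenic-like cells (319 and 386 CPM). Of 13 relatives of the members, Rgs4, which neighbours Rgs5, was highest in neuronal-like cells like Ndufa4l2, at 156 and 166 CPM, whereas Kcnj11 and Abcc8, which form the channel of pancreas and neurons, had 15 and 43 UMIs in WT and 17 and 24 in KO.

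Cells of WT were then split by Pdgfrb. Members were higher in the 2789 cells with a Pdgfrb UMI (median 18594 UMIs) than in the 5464 without (median 11522 UMIs), with the exception of Ndufa4l2. Cd248 stood at 65.5 against 21.1 CPM (log2 ratio 1.64 [1.56 to 1.72]), Kcnj8 at 7.65 against 2.77 CPM (1.46 [1.23 to 1.70]), Rgs5 at 52.6 against 19.9 CPM (1.40 [1.32 to 1.49]) and Ndufa4l2 at 11.8 against 16.4 CPM (-0.48 [-0.60 to -0.35]). In all, 7 of 8 members were at least 1.5-fold higher, as were 12.6% of all genes with at least 100 UMIs. Within mesenchyme-like cells alone the log2 ratio was 0.38 [0.27 to 0.50] for Rgs5 and 0.47 [0.17 to 0.77] for Kcnj8, and Ndufa4l2 was higher with Pdgfrb there, at 5.2 against 3.34 CPM (0.64 [0.26 to 1.03]). Within smooth muscle-like cells, Cspg4 stood at 48.8 against 14.5 CPM (1.75 [1.13 to 2.44]) and Ndufa4l2 at 21.2 against 20.5 CPM (0.05 [-0.51 to 0.65]). Within sclerotome-like cells Cspg4 went the other way, at 14.2 against 19.2 CPM (-0.44 [-0.80 to -0.08]).

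Between the libraries, over all cells, the summed level of Ndufa4l2 and Rgs5 was lower in KO and that of Cspg4 higher. The level of Ndufa4l2 was 14.1 CPM (WT) and 6.43 CPM (KO) (log2 KO over WT -1.14 [-1.25 to -1.02]), that of Rgs5 36.1 and 22.9 CPM (-0.66 [-0.72 to -0.60]) and that of Cspg4 7.84 and 11 CPM (0.49 [0.38 to 0.60]). Mcam (-0.47), Anpep (-0.51), Kcnj8 (-0.34) and Cd248 (-0.22) lay lower and Abcc9 had 0 inside its interval (0.03 [-0.17 to 0.24]). The 1.5-fold mark was passed downward by 2 of 8 members and upward by 0, where 5.06% of all genes with at least 100 UMIs passed it downward and 5.75% upward. The members' median log2 ratio was -0.40 and that of all genes 0.06. With the mean of per-cell CPM, Ndufa4l2 lay at -0.34 and Rgs5 at -0.58, neither past the mark, and Mcam passed it at -0.61. With mitochondrial UMIs under 5%, Ndufa4l2 lay at -0.63, Cspg4 at 1.11 and Mcam at 0.07, on the other side of 0. The study left out KO cells with Pdgfrb, of which the values here keep 801. Without them 5 of 8 members passed the mark downward, with Rgs5 at -0.91 and Ndufa4l2 at -0.98. Cells with Pdgfrb stayed in WT, where 7 of 8 members were at least 1.5-fold higher in them. The cells compared are thus unlike by choice, and the count of 5 is no like-for-like difference. No share over all genes was computed for it.

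The classes were not present in equal shares. Neuronal-like cells held 2.54% of UMIs in WT and 1.39% in KO, and sclerotome-like cells 11.1% and 18.9%. With the classes weighted to their WT shares, the log2 ratio was -0.47 for Ndufa4l2, -0.53 for Rgs5 and 0.23 for Cspg4, and 0 members passed the mark downward. No share over all genes was computed with these weights. Within sclerotome-like cells, Cspg4 was 0.62 [0.42 to 0.83] higher on the log2 scale in KO.

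In mesenchyme-like cells several members were lower in KO. Ndufa4l2 stood at 4.57 and 0.923 CPM (-2.31 [-2.76 to -1.88]), each below the free RNA of its own library, which was lower in KO as well, Rgs5 at 45.3 and 28.2 CPM (-0.68 [-0.77 to -0.60]), Anpep at 5.95 and 3.8 CPM (-0.65 [-0.89 to -0.41]) and Mcam at 5.24 and 3.4 CPM (-0.63 [-0.89 to -0.37]). Thus 4 of 8 passed the mark downward and 0 upward, against 4.59% and 4.06% of all genes in that class, and the median was -0.56 for the members and 0.02 for all genes. Of the 4, Mcam also lay below its free RNA, which was at 9.26 CPM (WT) and 7.63 CPM (KO). Rgs5 was at 28.6 and 25.0 CPM in the free RNA, close to its mesenchyme-like level in KO. How much of these cells' UMIs was free RNA was not measured, so these values do not mark the levels as background. A group of mesenchyme-like cells with Tlx1, Nkx2-5 or Barx1, genes of the spleen and stomach mesenchyme, counted 425 cells in WT and 40 in KO. In WT it held Kcnj8 at 16.9 CPM against 4.91 CPM in the other mesenchyme-like cells and Abcc9 at 7.78 against 2.52 CPM. In KO it held Kcnj8 at 19.5 against 4.63 CPM and Abcc9 at 11.1 against 2.61 CPM. Without it, Kcnj8 moved from -0.48 [-0.70 to -0.27] to -0.08 [-0.34 to 0.17]. Abcc9 moved from -0.28 [-0.58 to 0.01] to 0.05 [-0.29 to 0.40], with 0 inside both intervals. Without that group Ndufa4l2 was at -2.42 [-2.87 to -1.99] and Rgs5 at -0.56 [-0.65 to -0.47].

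**Figure D4:**
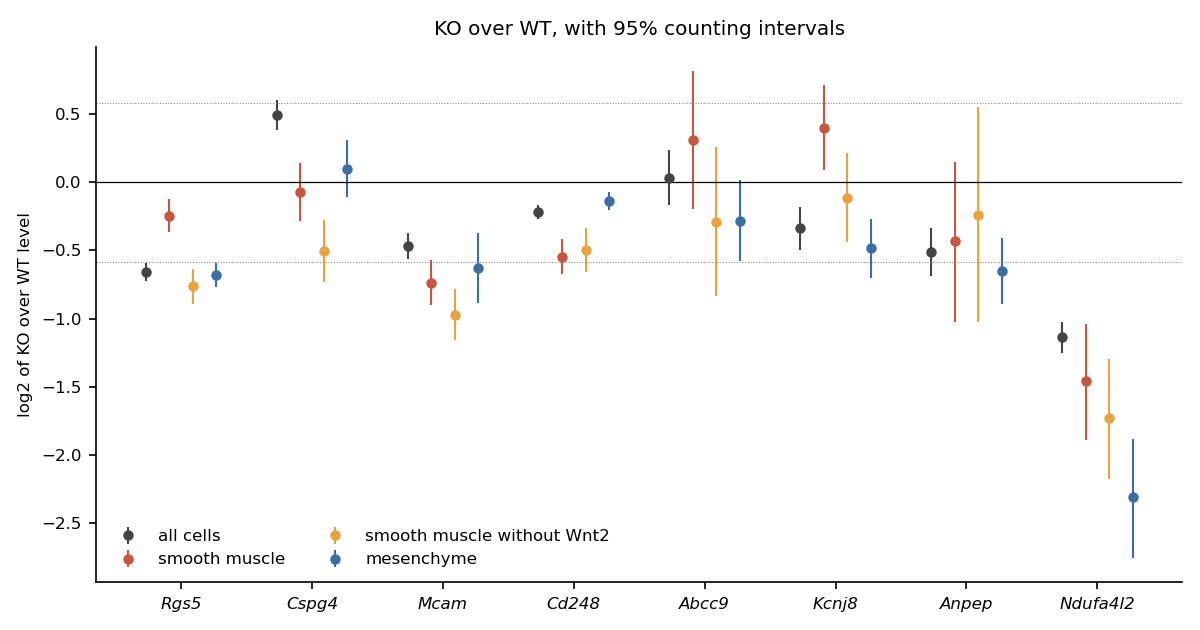
log2 of the KO over the WT level of each gene, with exact 95% counting intervals, in all cells, smooth muscle-like cells, smooth muscle-like cells without a Wnt2 UMI and mesenchyme-like cells; dotted lines mark 1.5-fold. Ndufa4l2 lies below the lower line in all 4 populations. Kcnj8 changes side of 0 between populations, and the intervals of Abcc9 contain 0 in all 4.

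In smooth muscle-like cells, 2 of 8 members passed the mark downward, Ndufa4l2 at -1.46 [-1.89 to -1.04] and Mcam at -0.74 [-0.90 to -0.57], and 0 upward, where 5.62% and 4.78% of all genes did, with a median of -0.34 for the members and 0.02 for all genes. With mitochondrial UMIs under 5%, on 130 WT and 81 KO cells, Mcam turned to 0.062 and Ndufa4l2 lay at -3.84. That Ndufa4l2 ratio rests on few KO counts, with levels of 32.1 CPM (WT) and 2.24 CPM (KO), and no interval was computed for it. Without the KO cells that held Pdgfrb, 5 of 8 passed the mark downward, with Mcam at -1.18 and Ndufa4l2 at -2.18. WT cells with Pdgfrb again stayed in, which makes the cells compared unlike, and no share over all genes was computed. With all cells of the class kept, Cd248 was lower in KO without passing the mark (-0.55 [-0.68 to -0.42]). Kcnj8 was higher in KO (0.40 [0.09 to 0.71]). Intervals lay below 0 for 4 members and above 0 for 1. This class was not made up alike in the libraries. Cells with a UMI of Wnt2, a marker in the mesenchyme list, numbered 146 of 446 in WT and 34 of 338 in KO. The 8 marker genes of the class itself summed to 12400 CPM in WT and 7884 CPM in KO. All 8 skeletal myogenic markers were detected in the class and summed to 526 and 132 CPM, 7 sclerotome markers in WT and 8 in KO summed to 96.0 and 229 CPM, and the 10 mesenchyme markers to 5333 and 3008 CPM. In mesenchyme-like cells the same 10 genes summed to 3719 and 2244 CPM, below the smooth muscle-like class. The gates thus do not separate these classes by mesenchyme genes. The part of these marker lists in the ratios was not tested. In WT the 300 cells without Wnt2 held Rgs5 at 212 CPM and the 146 with it at 32.5 CPM, Kcnj8 at 27.0 and 3.65 CPM, and Abcc9 at 10.6 and 2.08 CPM, whereas Anpep went the other way at 5.21 and 9.37 CPM. In KO the 304 without held Rgs5 at 125 CPM and the 34 with at 67.1 CPM, above the value of such cells in WT (log2 KO over WT 1.04 [0.63 to 1.45]), Kcnj8 at 24.9 and 11.3 CPM, and Abcc9 at 8.68 and 9.04 CPM.

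Compared among cells without Wnt2 only, a comparison added after this was seen, more members were lower in KO. The study reports lower Wnt2 itself in KO, in the stromal cluster that held its Pdgfrb cells. Cells without a Wnt2 UMI therefore need not be the same kind of cell in both libraries. Cells with a Wnt2 UMI also held more UMIs on average in both libraries, and depth was not matched. How far either point shaped the ratios was not tested. Rgs5 lay at -0.76 [-0.89 to -0.63] instead of -0.24, Cspg4 at -0.51 [-0.74 to -0.28] instead of -0.07 and Mcam at -0.97 [-1.16 to -0.78], while Kcnj8 lay at -0.11 [-0.44 to 0.21] instead of 0.40. Ndufa4l2 had the lowest ratio again, with 29.2 and 8.82 CPM (-1.73 [-2.17 to -1.29]). Cd248 lay at -0.50 [-0.66 to -0.34]. Of 7 members with at least 100 UMIs, 3 passed the mark downward and 0 upward, against 4.25% and 4.41% of all genes. Other parts of the class differed. With a Myh11 UMI (206 WT and 155 KO cells), Rgs5 lay at -0.13 [-0.27 to 0.01], Cspg4 at -0.04 [-0.27 to 0.19] and Kcnj8 at 0.28 [-0.07 to 0.64]. Mcam (-0.70), Cd248 (-0.68) and Ndufa4l2 (-1.19) were lower there. With Wnt2, on 34 KO cells, Cspg4 lay at 0.73, Kcnj8 at 1.63, Abcc9 at 2.12 and Ndufa4l2 at -2.68. Among the cells without Wnt2, 5 of 17 other mural genes with at least 100 UMIs were at least 1.5-fold lower in KO, and 2 were higher, Foxf2 and Ednrb. The 5 were Pdgfrb, which is the targeted gene, Heyl, Ebf1, Ednra and Des. Epas1 stood at 10.8 and 1.99 CPM, Des at 39.4 and 18.4 CPM and Foxf2 at 3.35 and 24.0 CPM. Vtn, on few counts, had 21 UMIs and 1. Ednrb, which is also a gene of neural crest, stood at 3.53 and 13.8 CPM. Other populations did not show more of these mural genes lower than higher. In all smooth muscle-like cells 2 of 18 were lower and 3 higher, with a median log2 ratio of 0.18. In mesenchyme-like cells 2 of 21 were lower and 2 higher, and over all cells 1 of 22 was lower and 2 higher. The shares over all genes in these populations are given above.

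**Figure D5:**
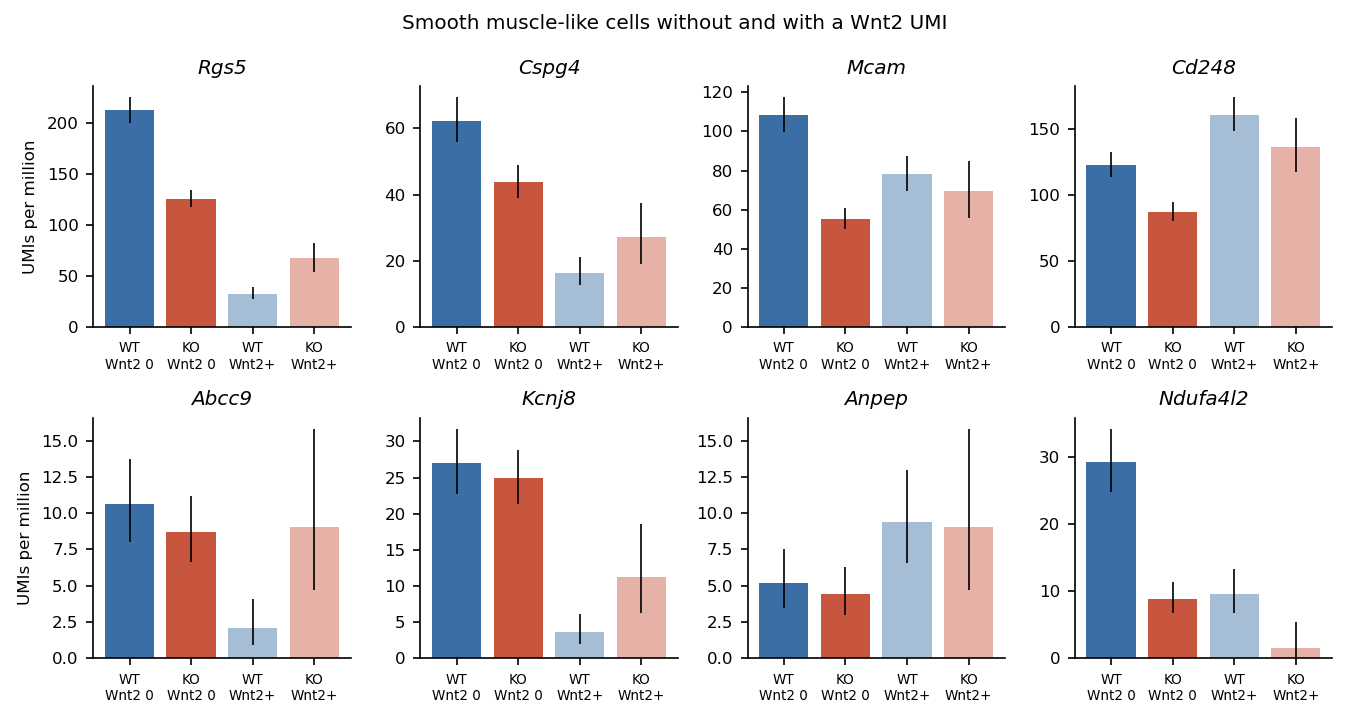
CPM of each gene in smooth muscle-like cells without (solid) and with (pale) a Wnt2 UMI, WT in blue and KO in red, with exact 95% counting intervals on linear axes from 0. Rgs5 is at 212 CPM in WT cells without Wnt2 and at 32.5 CPM in those with it, and the 34 KO cells with Wnt2 give wide intervals.

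In neuronal-like cells, the main source of Ndufa4l2, the gene stood at 360 and 287 CPM (-0.33 [-0.47 to -0.18]), and Rgs5 at 105 and 88.6 CPM (-0.25 [-0.51 to 0.01]). Whether the ratio of Ndufa4l2 differed between these cells and smooth muscle-like or mesenchyme-like cells was not tested. Thinned to 2000 UMIs, Ndufa4l2 was detected in 33.2% of neuronal-like cells in WT and 35.9% in KO, and in 4.34% and 1.27% of smooth muscle-like cells, so the neuronal-like difference in CPM was not seen in the share of cells. With the mean of per-cell CPM, Ndufa4l2 in neuronal-like cells was at 344 CPM (WT) and 419 CPM (KO), the opposite direction, where median depth was 23379 and 9199 UMIs.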

How the data were processed

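The deposited values are UMI counts per gene and barcode, as the authors' run of Cell Ranger 3.1.0 (reference mm10, GRCm38, per the labels) wrote them for every barcode, with no cells called and no normalization. Reads were not reprocessed. Barcodes with at least 2000 UMIs and under 10% mitochondrial UMIs were kept, which is not the cell calling of the study; KO cells with a Pdgfrb UMI, which the study left out, were kept and their removal was an alternative. UMIs were summed over a population and divided by all its UMIs (CPM). Ratios carry exact conditional intervals. Shares were also computed after thinning each cell to 2000 UMIs by the hypergeometric formula. A class needed 3 markers of its list (4 for smooth muscle and endothelium, 6 for erythroid cells) at 100 CPM. All classes other than smooth muscle, sclerotome and mesenchyme were assigned first, with endothelial, skeletal myogenic, and coelomic and gonadal cells among them. A cell that passed such a gate was not counted as smooth muscle-like. Smooth muscle, sclerotome and mesenchyme followed in that order. Likeness used log2(CPM + 10).

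With 1 library per genotype no test was made. The members, lists and gates were chosen with earlier results of these data known. Genes named are the 8 members, Pdgfrb, the lists' genes with the largest differences, and per member the 3 genes most alike over classes and most often in the same cells. Others, among them Th, Dbh, Wnt2, Tlx1, Nkx2-5 and Barx1, and examples from the lists, were chosen after their values were seen. There were 25 alternatives planned and 4 added later. The ratio, co-detection and thinning steps were tested on simulated data. For the ratios these were Poisson counts at the pooled level of each gene, so spread between cells was not covered by that test. Gene positions come from GENCODE M21 (GRCm38). Python 3.11.15, numpy, scipy and pandas were used. One result is not reported here.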

Additional observations from a re-analysis of the deposited data

Results flagged for a closer look

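Kcnj8 and Ndufa4l2 drew attention because their KO over WT ratio had counting intervals on opposite sides of 0 in different classes. Kcnj8 lay at a log2 ratio of 0.99 in coelomic and gonadal-like cells (20 UMIs in WT and 35 in KO) and at -0.48 in mesenchyme-like cells. Ndufa4l2 lay at 0.90 in sclerotome-like cells (19 and 57 UMIs) and at -2.31 in mesenchyme-like cells. The difference between the classes was not tested, since each genotype is 1 library.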

How the results depend on the processing

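No paired analysis was possible because each genotype has 1 library. Of the alternatives, these moved a count by over 1.5 times. Pairs co-detected at 1.5 times the expected number went from 15 to 23 in WT with mitochondrial UMIs under 5%, which left 3600 of 8253 cells, and to 7 in WT and 9 in KO within classes. Members at least 1.5-fold lower in KO numbered 2 over all cells, Ndufa4l2 and Rgs5. They numbered 1 with the mean of per-cell CPM, which was Mcam, and 0 with classes weighted to WT shares. As in the study, KO cells with a Pdgfrb UMI were then left out. The count was 5 over all cells and 5 in smooth muscle-like cells, in place of 2. That removal kept the WT cells with a Pdgfrb UMI, so the cells compared were unlike. No share over all genes was computed under these alternatives. Mcam in smooth muscle-like cells turned from a log2 ratio of -0.74 to 0.062 with mitochondrial UMIs under 5%, on 130 WT and 81 KO cells, and Rgs5 there from -0.24 to 0.24; the cause was not tested. Of 240 recomputed member ratios, 185 stayed within the counting interval of the value reported. Members with few UMIs, such as Abcc9 with 402 in WT and 390 in KO, are limited by depth.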
